A study of Mus musculus with 79 samples.

Results

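The collagen genes are the 44 genes whose symbol is made of Col, a type number and a chain number (such as Col4a1), among the 31350 gene entries measured on the lung arrays of 79 mice. Each of them had 1 entry, so no entry had to be chosen over another. By the structure of the protein they were divided into 11 fibrillar genes, 6 basement membrane genes (the chains of type IV collagen), 9 genes of the FACIT class (fibril-associated collagens with interrupted triple helices) and 18 others, which include the type VI, VIII, XIII, XV, XVIII and XXIII chains.

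Collagens are secreted proteins in which chains wind into a triple helix. In the lung, fibrillar collagens made by fibroblasts give the airway wall, vessels and alveolar septa their tensile strength, type IV collagen forms the sheet-like network under epithelium and endothelium, and type VI collagen forms beaded filaments around cells. Newly made chains are hydroxylated and folded in the endoplasmic reticulum, trimmed of their propeptides and crosslinked outside the cell, and collagenolytic enzymes remove them.

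The mice were WT and βENaC littermates on the C57BL/6J background, aged 5 to 7 weeks, of both sexes; βENaC mice carry a transgene for Scnn1b, the β subunit of the epithelial sodium channel, that is active in airway epithelial cells and leads to dehydrated airway mucus. Smoke-exposed mice breathed the smoke of 6 research cigarettes (3R4F) a day and sham-exposed mice breathed room air in the same kind of chamber, for 1 day or for 5 consecutive days, and the right lung was taken 4 hours after the last exposure. Smoke was given to 20 of the 40 mice killed after 1 day and to 19 of the 39 killed after 5 days, and the mice fell into 16 groups of 4 to 6 mice by genotype, exposure, sex and duration. Each mouse gave 1 array, all from 1 plate, and values are log2 intensities. RNA came from homogenized lung, so fewer cells of a type cannot be told apart from less RNA per cell. Scnn1b itself lay between 8.42 and 9.47 in WT mice and between 11.52 and 11.88 in βENaC mice over both durations, with no overlap. For 13 smoke-exposed WT mice, 4 at 1 day and 9 at 5 days, the source name gives βENaC where the title and the genotype entry give WT. The labels conflict on genotype alone, Scnn1b was at the WT level in all 13, and the title was used; results are also given without these mice.

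Of the 44 collagen genes, 20 lay above the median of their own array in all 79 mice and 17 lay below it in all 79. Over all entries these numbers were 13668 and 12625 of 31350. The 17 included 5 fibrillar genes, 5 FACIT genes and 7 others; the cartilage collagen gene Col2a1 ran from 3.13 to 4.05 and was among them. Type IV was the class with the fewest dim genes: 5 of its 6 genes were above the array median in every mouse and none was below it in every mouse.

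**Figure D1:**
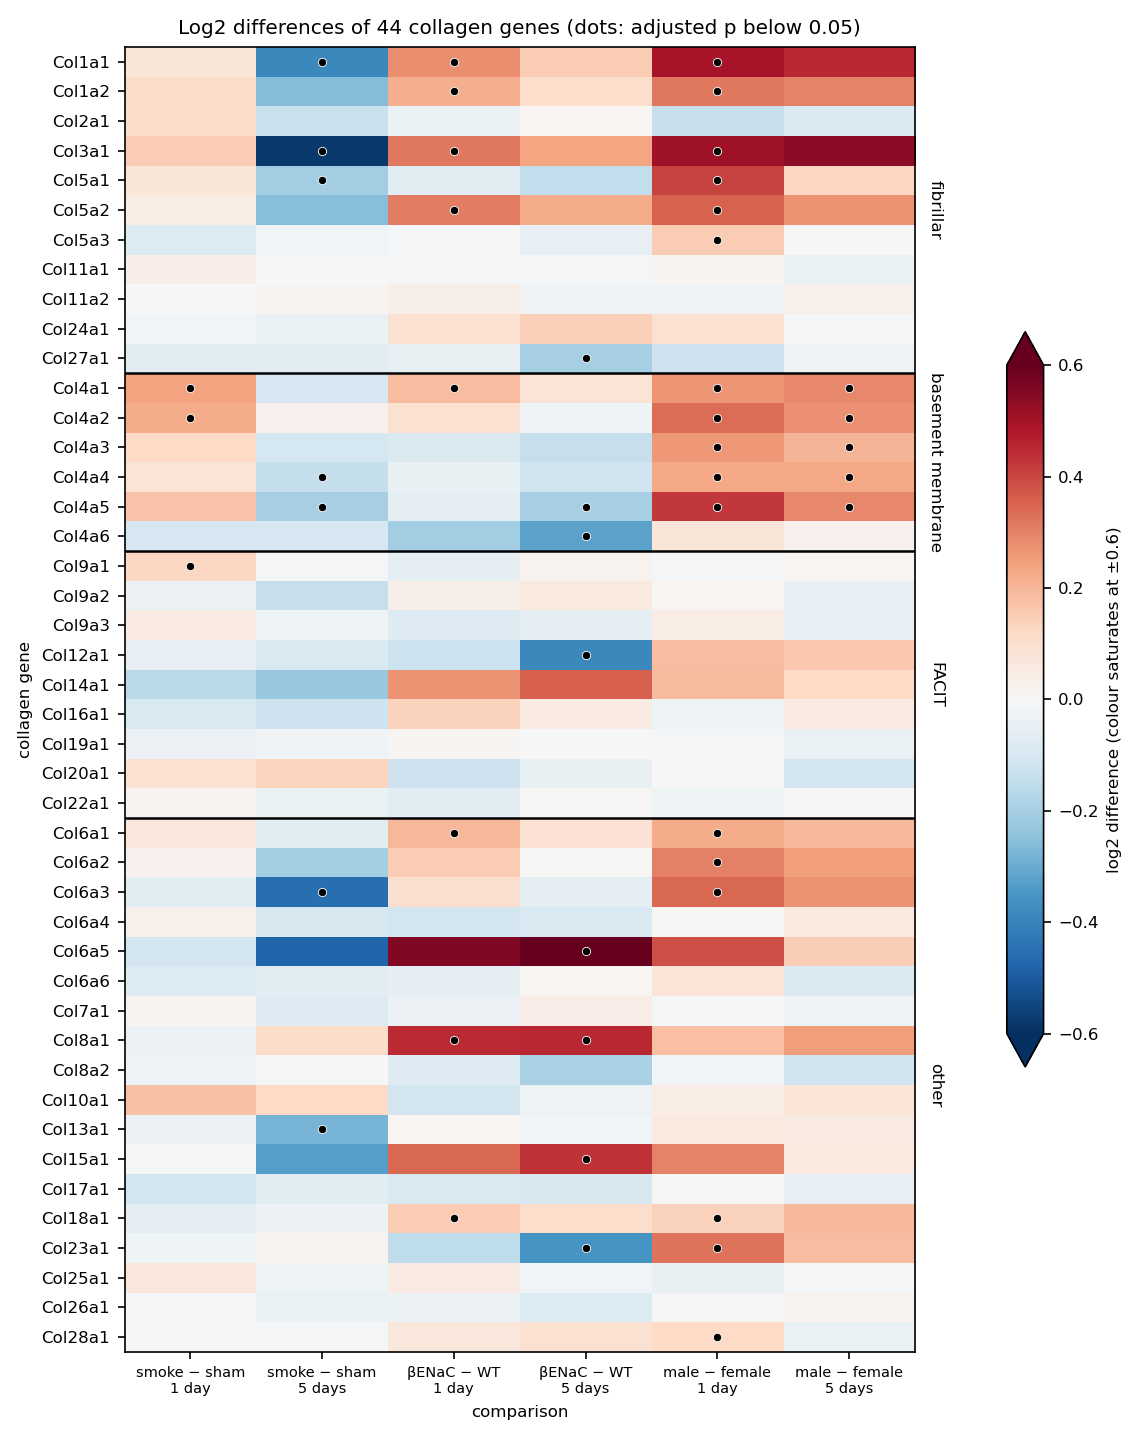
Log2 difference of each of the 44 collagen genes (rows, by class) in 6 comparisons (columns: smoke minus sham, βENaC minus WT and male minus female, each after 1 day and after 5 days). Colour gives the difference, saturating at 0.6 on either side, and a dot marks an adjusted p below 0.05. The 5-day smoke column is mostly blue, with 37 of 44 genes lower in smoke-exposed mice, and the column of sex at 1 day holds 17 dots, all on higher values in males.

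The first comparison asked how smoke changed collagen expression after a single day. It raised the 2 main chains of type IV collagen, Col4a1 and Col4a2, which wind together in the basement membranes of most tissues, and no fibrillar gene was called. Col4a2 had a lowest, median and highest level of 8.57, 9.03 and 9.49 in sham-exposed mice and of 8.75, 9.30 and 9.59 in smoke-exposed mice. Col4a1 stood at 8.78, 9.34 and 9.83 in sham-exposed mice and at 9.11, 9.58 and 9.94 in smoke-exposed mice. For both genes the smoke-exposed mice sat higher as a group, but the groups overlapped over most of their range. With genotype and sex in the model, Col4a2 rose by 0.22 (SE 0.05, adjusted p = 0.00089, limma) and Col4a1 by 0.24 (SE 0.06, adjusted p = 0.0043). Both genes were higher in smoke-exposed mice in each of the 4 combinations of genotype and sex, and 18 of 20 smoke-exposed mice for Col4a2 and 17 of 20 for Col4a1 were above the sham mean of their own genotype and sex. Without the 4 mice whose labels disagree, 3 genes were again called, with Col4a2 at 0.24 (adjusted p = 0.0013) and Col4a1 at 0.24 (adjusted p = 0.014).

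The third and last gene called was Col9a1, a chain of the cartilage-associated type IX collagen, with a log2 difference of 0.12 (SE 0.03, adjusted p = 0.011). Its levels ran from 2.73 to 3.17 at 1 day, far below the array medians of 4.44 to 4.55. These 3 genes, 3 of 44, compare with 5.03% of all entries called higher at an adjusted p below 0.05. None of the 44 passed the methods' rule, which also asks for a change over 1.3-fold (0.379 in log2), against 1.07% of all entries in either direction by limma; 7 of the 44 had an unadjusted p below 0.05, and an ordinary linear model also called 0 by that rule. The type IV genes had a positive difference in 5 of 6, with a median of 0.15, whereas over all 44 genes 22 were positive and 22 negative with a median of 0.0075, against 0.0103 over all entries. In all 4 combinations of genotype and sex, 12 of the 44 genes were higher in smoke-exposed mice, against 14.3% of all entries. Another 4 were lower in all 4, against 11.1%. Of the fibrillar genes, Col3a1 differed by 0.15 (SE 0.10, adjusted p = 0.39), Col1a2 by 0.11 (SE 0.07, adjusted p = 0.34) and Col1a1 by 0.07 (SE 0.08, adjusted p = 0.66).

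After 5 days of smoke the picture was of lower collagen expression. Of the 44 genes, 7 fell and none rose: 3 fibrillar genes (Col3a1, Col1a1 and Col5a1), 2 type IV genes (Col4a5 and Col4a4), Col6a3 of type VI and Col13a1 of the membrane-bound type XIII. The fall was largest in Col3a1, the chain of the type III fibrils that run with type I collagen in distensible tissue.

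Col3a1 had a lowest, median and highest level of 8.13, 9.62 and 10.50 in sham-exposed mice and of 7.09, 9.11 and 9.81 in smoke-exposed mice. Col1a1, which gives 2 of the 3 chains of type I collagen, the main fibril of the lung interstitium, ran at 8.60, 9.95 and 10.64 in sham-exposed mice and at 8.24, 9.65 and 10.34 in smoke-exposed mice. Col6a3, the longest chain of type VI collagen, ran at 7.91, 8.60 and 9.16 against 8.16 in the middle of the smoke-exposed mice, whose range was 7.26 to 8.71. In all 3 genes the smoke-exposed mice were lower as a group, the single lowest mouse was smoke-exposed, and the groups overlapped. The fitted differences were -0.58 for Col3a1 (SE 0.15, adjusted p = 0.012), -0.45 for Col6a3 (SE 0.09, adjusted p = 0.00054) and -0.39 for Col1a1 (SE 0.12, adjusted p = 0.048), and these 3 also passed the methods' rule by limma. Each was lower in all 4 combinations of genotype and sex, from -0.79 to -0.40 for Col3a1, from -0.55 to -0.30 for Col6a3 and from -0.59 to -0.29 for Col1a1. Of the 19 smoke-exposed mice, 17 were below the sham mean of their own genotype and sex for Col3a1, 17 for Col6a3 and 16 for Col1a1. An ordinary linear model called 6 collagen genes, 2 of them by the methods' rule. In that model Col1a1 lost its call (adjusted p = 0.062), whereas Col3a1 and Col6a3 kept theirs.

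The gene with the smallest p was Col13a1, a collagen that spans the cell membrane, with levels of 6.38, 6.72 and 7.07 in sham-exposed mice and 6.15, 6.42 and 6.68 in smoke-exposed mice. It fell by 0.28 (SE 0.05, adjusted p = 0.00039), and 18 of 19 smoke-exposed mice were below their own sham mean. Col5a1, a chain of the type V collagen that sets fibril diameter, had levels of 6.10, 6.46 and 6.91 against 5.78, 6.29 and 6.57, overlapping but lower with smoke, and fell by 0.21 (SE 0.06, adjusted p = 0.035). Col4a5 fell by 0.20 (SE 0.06, adjusted p = 0.034) and Col4a4 by 0.14 (SE 0.04, adjusted p = 0.039); with Col4a3 they form the type IV network of the alveolar and glomerular basement membranes. Col1a2, the partner chain of Col1a1, ran at 8.50, 9.53 and 10.15 in sham-exposed mice and at 8.49, 9.33 and 9.63 in smoke-exposed mice, with the same lower end and a lower top; it differed by -0.26 (SE 0.08, adjusted p = 0.051), and Col5a2 by -0.26 (SE 0.09, adjusted p = 0.10). Col4a1 and Col4a2, the genes raised at 1 day, differed by -0.10 (SE 0.05, adjusted p = 0.30) and 0.03 (SE 0.05, adjusted p = 0.87).

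The background share of entries called lower at an adjusted p below 0.05 was 3.37%, against 7 of 44 collagen genes, and by the methods' rule it was 0.577%, against 3 of 44. Of the 44, 37 had a negative difference, with a median of -0.0728 against -0.0018 over all entries, and the extremes were Col3a1 and Col20a1, at 0.13 (adjusted p = 0.19). In the fibrillar class 9 of 11 were negative (median -0.13), and in the FACIT class 8 of 9 (median -0.04). Among the 23 collagen genes whose mean lay above the array median, 20 were negative (median -0.141), against a median of -0.0014 over the 15662 entries above it. Of the 44 genes, 18 were lower in smoke-exposed mice in all 4 combinations of genotype and sex, against 13% of all entries, and 1 was higher in all 4, against 12.4%.

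Without the 9 mice whose labels disagree, no smoke-exposed WT mouse remained at 5 days, and limma called 0 of the 44 genes (8 at an unadjusted p below 0.05). Calls over all 31350 entries, in either direction, fell from 2048 to 629 in that fit of 30 mice, so the loss was not particular to the collagen genes. Col3a1 then differed by -0.58 (adjusted p = 0.14), Col6a3 by -0.37 (adjusted p = 0.11), Col1a1 by -0.42 (adjusted p = 0.26) and Col13a1 by -0.26 (adjusted p = 0.080), and 34 of 44 genes were negative. Leaving out single mice moved the count of 7 to between 3 and 11: it was 11 without smoke-exposed βENaC female 3, 3 without smoke-exposed βENaC male 1 or sham-exposed βENaC female 4, and 4 without sham-exposed βENaC female 3, sham-exposed βENaC male 2, sham-exposed WT female 4, sham-exposed WT males 2 or 5, or smoke-exposed WT males 3 or 5. Col3a1, Col6a3 and Col13a1 kept their calls without any 1 of the 39 mice, whereas Col1a1 lost its call without any of 29 mice.

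**Figure D2:**
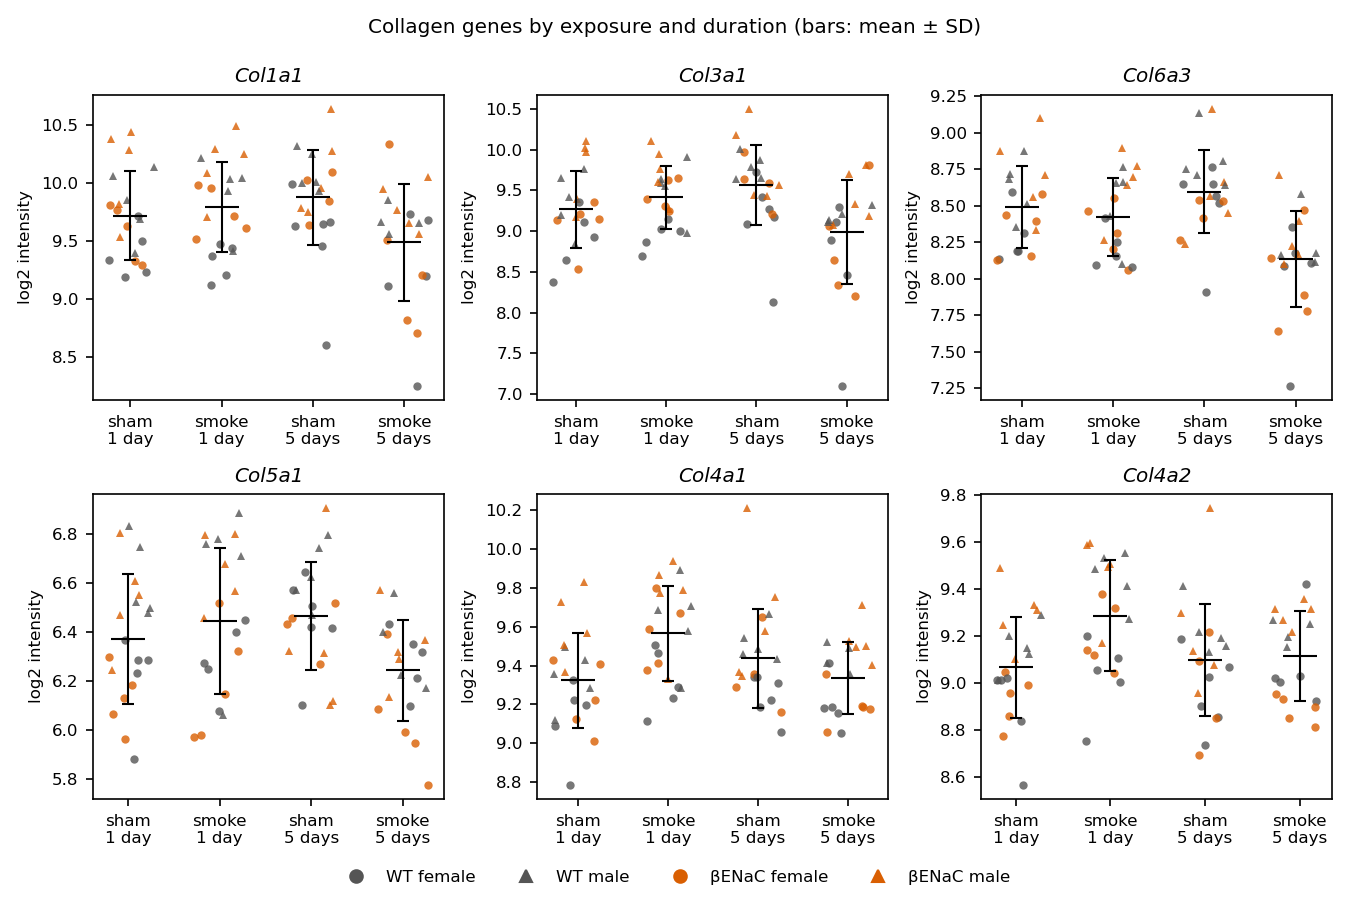
Log2 intensity in each mouse (points; colour by genotype, circles for females and triangles for males) for 6 collagen genes, by exposure and duration; bars give mean ± SD of the 19 or 20 mice. Col1a1, Col3a1, Col6a3 and Col5a1 sit lower in smoke-exposed mice at 5 days, and Col4a1 and Col4a2 sit higher in smoke-exposed mice at 1 day; all groups overlap.

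The sequences just upstream of the start sites of Col3a1 and Col6a3, both called lower at 5 days, and of Col1a2, the partner of Col1a1, are shown because the 5-day results turn on these genes; they are RefSeq sequences of the mouse assembly GRCm38.p6, each 120 bases long and written 5′ to 3′ up to the base before the start. The window searched in each gene ran from 250 bases before to 50 after the start, and 35 of the 44 collagen genes had one. Capitals mark a CCAAT box (CCAAT) or a TATA box (TATAAA). Col1a2 lies on the plus strand at chr6:4505498-4505617, Col3a1 on the plus strand at chr1:45311418-45311537 and Col6a3 on the minus strand at chr1:90843972-90844091. Each start, here and in the chain pairs below, is 1 annotated start of its gene. The annotated Col6a3 gene reaches to base 90844001, so the last part of its piece lies inside the gene.
Col1a2: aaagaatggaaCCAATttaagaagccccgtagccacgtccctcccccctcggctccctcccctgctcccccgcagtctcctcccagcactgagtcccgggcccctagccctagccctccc
Col3a1: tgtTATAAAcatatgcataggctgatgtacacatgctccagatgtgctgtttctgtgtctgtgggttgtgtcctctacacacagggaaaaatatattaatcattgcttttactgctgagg
Col6a3: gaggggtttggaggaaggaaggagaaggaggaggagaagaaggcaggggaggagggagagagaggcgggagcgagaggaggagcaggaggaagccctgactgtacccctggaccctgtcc

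The CCAAT box of Col1a2 begins 109 bases before its start and the TATA motif of Col3a1 117 bases before, and the piece of Col6a3 holds neither. Over both strands, TATAAA was found in 5 of the 35 collagen windows and in 14.2% of all 27025 promoter windows, and CCAAT in 12 of 35 and in 37.9%. The GC box GGGCGG was in 22 of 35 (62.9%) and in 35.9% of all windows. The AP-1 motif TGANTCA was in 1 of 35 and in 7.93%, and the core of the dioxin response element, GCGTG, in 10 of 35 and in 32.5%. These are matches of letters in a window and were not tested as sites.

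The next comparison asked whether the smoke response differed between the durations, as the smoke minus sham difference at 5 days minus that at 1 day. In the methods' model, which holds exposure, duration and their product, limma called 0 collagen genes, against 0.612% of all entries; 13 of the 44 had an unadjusted p below 0.05, all 13 lower at 5 days, and an ordinary linear model also called 0. Col3a1 had a coefficient of -0.73 (SE 0.22, adjusted p = 0.11), Col1a1 of -0.46 (SE 0.19, adjusted p = 0.29) and Col4a1 of -0.34 (SE 0.10, adjusted p = 0.10). Of the 44 coefficients 33 were negative, with a median of -0.09 against -0.01 over all entries, and all 6 type IV genes were negative (median -0.24), as were 9 of 11 fibrillar genes (median -0.24).

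With genotype, sex and their products with duration in the model, 3 of 44 collagen genes were called lower, against 0.762% of all entries: Col4a1 at -0.34 (SE 0.08, adjusted p = 0.0090), Col3a1 at -0.73 (SE 0.18, adjusted p = 0.018) and Col4a5 at -0.37 (SE 0.09, adjusted p = 0.020). In the methods' model the count was 1, for Col3a1, without sham-exposed WT female 3 of the 5-day set. Between the sets, sham-exposed mice had 0 of 44 collagen genes called at 5 days against 1 day by limma (0.309% of all entries), with 9 at an unadjusted p below 0.05, all 9 higher at 5 days. Smoke-exposed mice had 5 of 44 called lower at 5 days, against 3.17% of all entries: Col4a1 (-0.22, adjusted p = 0.0041), Col6a3 (-0.28, adjusted p = 0.011), Col4a2 (-0.16, adjusted p = 0.024), Col3a1 (-0.42, adjusted p = 0.025) and Col5a1 (-0.19, adjusted p = 0.034). The median over the 44 genes was 0.0698 in the sham-exposed mice, against 0.0125 over all entries, and -0.0489 in the smoke-exposed mice, against -0.0011. The durations are sets of different mice, so duration cannot be told apart from anything else in which the sets differed.

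**Figure D3:**
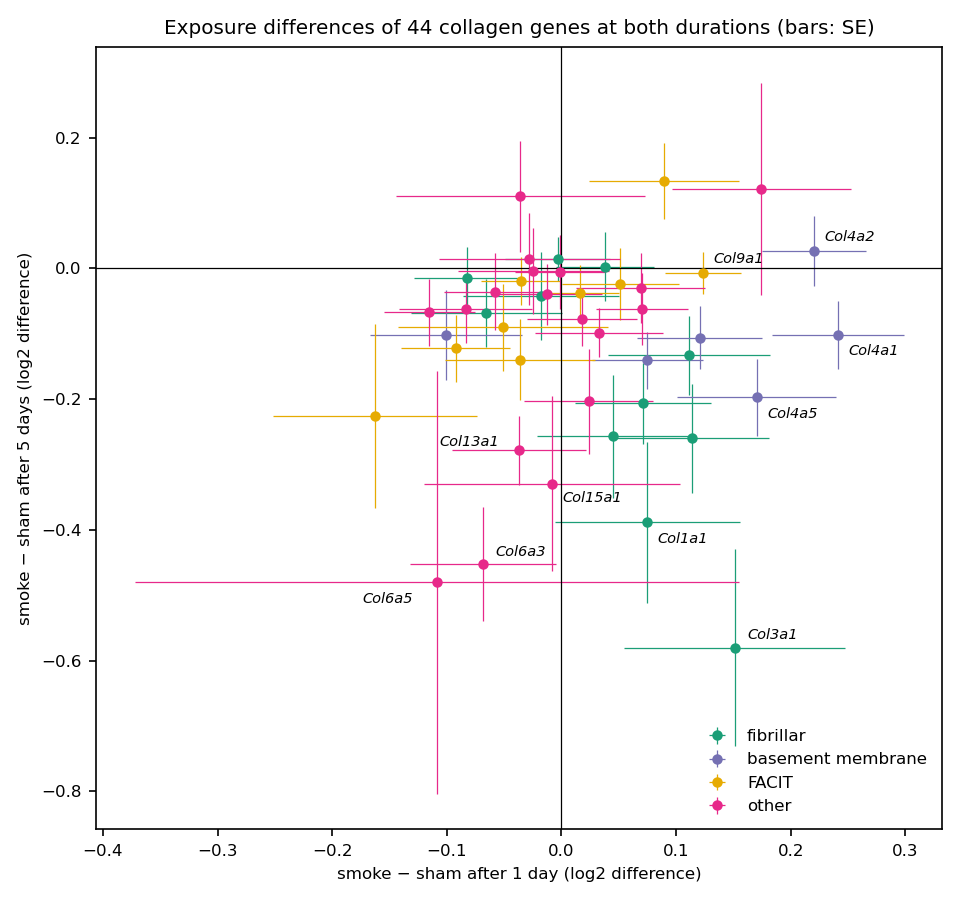
Smoke minus sham log2 difference of each of the 44 collagen genes after 1 day (horizontal axis) and after 5 days (vertical axis), coloured by class; bars are the SE of each fit. Most points lie below 0 on the vertical axis, Col3a1 lies lowest at -0.58, and Col4a1 and Col4a2 lie farthest right at 0.24 and 0.22.

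No collagen gene was called for a smoke response that differs by genotype or sex within a duration: the F-test of both products called 0 of 44 at each duration by limma, with 1 gene at an unadjusted p below 0.05 at 1 day and 0 at 5 days. The smallest adjusted p of a collagen gene was 0.653. Over all entries the test called 2 of 31350 at 1 day (0.00638%) and 0 at 5 days (0%), so the 0 of 44 says nothing particular of the collagen genes.

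Genotype was the second factor. In βENaC mice 8 of the 44 collagen genes were called at 1 day, all 8 higher: Col1a1, Col1a2, Col3a1, Col5a2, Col4a1, Col6a1, Col8a1 and Col18a1. At 5 days the called genes were split, with Col6a5, Col8a1 and Col15a1 higher and Col12a1, Col23a1, Col4a6, Col27a1 and Col4a5 lower. Col8a1 was called at both durations.

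Col8a1, a short-chain collagen of vessel walls and of the basement membrane of the cornea, had a lowest, median and highest level of 5.01, 5.54 and 6.16 in WT mice and of 5.29, 5.93 and 6.79 in βENaC mice at 1 day. At 5 days it stood at 5.07, 5.58 and 6.18 in WT mice and at 5.62, 6.05 and 6.72 in βENaC mice. Every βENaC mouse at 5 days was above the WT median, and the ranges overlapped at both durations. The difference was 0.45 at 1 day (SE 0.11, adjusted p = 0.0072) and 0.45 at 5 days (SE 0.09, adjusted p = 0.00028). At 5 days 19 of 19 βENaC mice, and at 1 day 19 of 20, were above the WT mean of their own exposure and sex. Its partner chain Col8a2 differed by -0.08 (SE 0.07, adjusted p = 0.61) at 1 day and -0.19 (SE 0.07, adjusted p = 0.054) at 5 days.

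The fibrillar genes were the largest class among the 8 at 1 day. Col3a1 was higher by 0.31 (SE 0.10, adjusted p = 0.043), with medians of 9.13 in WT and 9.39 in βENaC mice. Col1a1 was higher by 0.28 (SE 0.08, adjusted p = 0.030), Col1a2 by 0.22 (SE 0.07, adjusted p = 0.046) and Col5a2, the partner of Col5a1 in type V collagen, by 0.31 (SE 0.07, adjusted p = 0.0023). Among the rest, Col6a1 of type VI collagen had levels of 9.33, 9.74 and 9.91 in WT mice and of 9.48, 9.93 and 10.24 in βENaC mice, whose median was above every WT mouse, and was higher by 0.20 (SE 0.04, adjusted p = 0.0012), Col4a1 by 0.18 (SE 0.06, adjusted p = 0.047) and Col18a1, whose end fragment is endostatin, by 0.15 (SE 0.04, adjusted p = 0.029). The 8 of 44 compare with 3.58% of all entries called higher, and the 1 gene past the methods' rule, Col8a1, with 1.13%. Over the 44 genes the median was 0.0021, against 0.0024 over all entries, with 22 higher and 22 lower. Among the 23 collagen genes whose mean lay above the array median, 15 were higher and 8 lower. Their median was 0.137, against 0.0092 over the 15662 entries above it. At 5 days Col1a1 differed by 0.15 (adjusted p = 0.52) and Col3a1 by 0.24 (adjusted p = 0.38), but the change of the genotype difference between durations called 0 of 44 genes by limma (2 at an unadjusted p below 0.05, Col6a5 and Col12a1), and 0% of all entries.

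Without the 4 mice whose labels disagree at 1 day, 3 collagen genes were called for genotype, and Col1a1 then differed by 0.25 (adjusted p = 0.13) and Col3a1 by 0.29 (adjusted p = 0.14). Leaving out single mice gave 4 to 12 called genes: 4 without smoke-exposed βENaC male 1, smoke-exposed βENaC female 4, sham-exposed βENaC female 2 or smoke-exposed WT male 5, and 5 without smoke-exposed βENaC females 2 or 3, smoke-exposed WT females 2 or 5, sham-exposed WT female 2, sham-exposed WT males 1 or 5, or sham-exposed βENaC males 1, 2 or 3. By the methods' rule, 2 genes were called without sham-exposed βENaC female 4. Col5a2, Col6a1 and Col8a1 kept their calls without any 1 of the 40 mice. Col1a2 lost its call without any of 26 mice, Col3a1 without any of 23 and Col4a1 without any of 22. An ordinary linear model also left Col1a2, Col3a1 and Col4a1 uncalled (adjusted p = 0.056, 0.056 and 0.055).

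At 5 days, Col12a1, a fibril-associated collagen of tissues under load, had levels of 7.11, 7.73 and 8.24 in WT mice and of 6.80, 7.46 and 7.68 in βENaC mice. Col4a6, which with Col4a5 forms a type IV network found around smooth muscle, had levels of 4.73, 5.30 and 5.71 in WT mice and of 4.51, 4.99 and 5.21 in βENaC mice. For both genes every βENaC mouse was below the WT median, and the ranges overlapped. Col12a1 was lower by 0.39 in log2 (difference -0.39, SE 0.07, adjusted p = 8.6e-05) and Col4a6 differed by -0.32 (SE 0.07, adjusted p = 0.0013), and for each gene 19 of 19 βENaC mice were below the WT mean of their own exposure and sex. Col23a1, a membrane-spanning collagen, differed by -0.35 (SE 0.07, adjusted p = 0.00058), Col27a1, a fibrillar collagen of cartilage, by -0.20 (SE 0.05, adjusted p = 0.0089) and Col4a5 by -0.20 (SE 0.06, adjusted p = 0.022). At 1 day Col12a1 had differed by -0.13 (SE 0.09, adjusted p = 0.51) and Col4a6 by -0.21 (SE 0.07, adjusted p = 0.052).

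Col6a5, an alternative chain of type VI collagen, had levels spread widely over the βENaC mice. Its levels at 5 days were 3.14, 3.34 and 3.88 in WT mice and 3.07, 4.45 and 7.91 in βENaC mice, and at 1 day 3.08, 3.38 and 4.41 in WT mice and 3.21, 3.76 and 7.90 in βENaC mice. The WT mice were all low and close together, whereas the βENaC mice ran from the same low level to values far above any WT mouse. Every WT mouse was below the lowest array median (4.44) and the values used here carry no detection call, so the size of the difference from WT rests on a dim level and is not exact. Of the βENaC mice, 12 of 19 at 5 days and 3 of 20 at 1 day were above the highest WT mouse of that duration. The 12 were 8 of the 9 sham-exposed and 4 of the 10 smoke-exposed mice; in the group of smoke-exposed females, mouse 3 stood at 7.91 and the other 4 between 3.07 and 3.51. The difference was 1.41 at 5 days (SE 0.32, adjusted p = 0.0027) and 0.56 at 1 day (SE 0.26, adjusted p = 0.26). Its smoke minus sham difference at 5 days was -0.48 (SE 0.32, adjusted p = 0.48).

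Col15a1, a collagen that links basement membranes to fibrils, had levels of 4.01, 5.10 and 5.41 in WT mice and of 4.79, 5.35 and 6.49 in βENaC mice at 5 days. The highest βENaC mice lay above every WT mouse and the rest overlapped with them. It was higher by 0.43 (SE 0.13, adjusted p = 0.031) at 5 days and by 0.35 (SE 0.11, adjusted p = 0.057) at 1 day, and its 5-day call was lost without sham-exposed βENaC female 3 or sham-exposed βENaC males 2 or 3. At 5 days the 3 genes called higher compare with 4.85% of all entries and the 5 called lower with 5.33%. By the methods' rule Col6a5, Col8a1 and Col15a1 were higher, against 1.87% of entries, and Col12a1 lower, against 0.651%; 2 of these 4 were called without smoke-exposed βENaC female 3 or sham-exposed βENaC male 3. Without the 9 mice whose labels disagree, 5 genes were called, and Col27a1, Col4a5 and Col15a1 lost their calls, at -0.18 (adjusted p = 0.17), -0.13 (adjusted p = 0.48) and 0.53 (adjusted p = 0.091). No smoke-exposed WT mouse remained in that fit, so its genotype difference rests on the sham-exposed mice and is a narrower comparison.

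**Figure D4:**
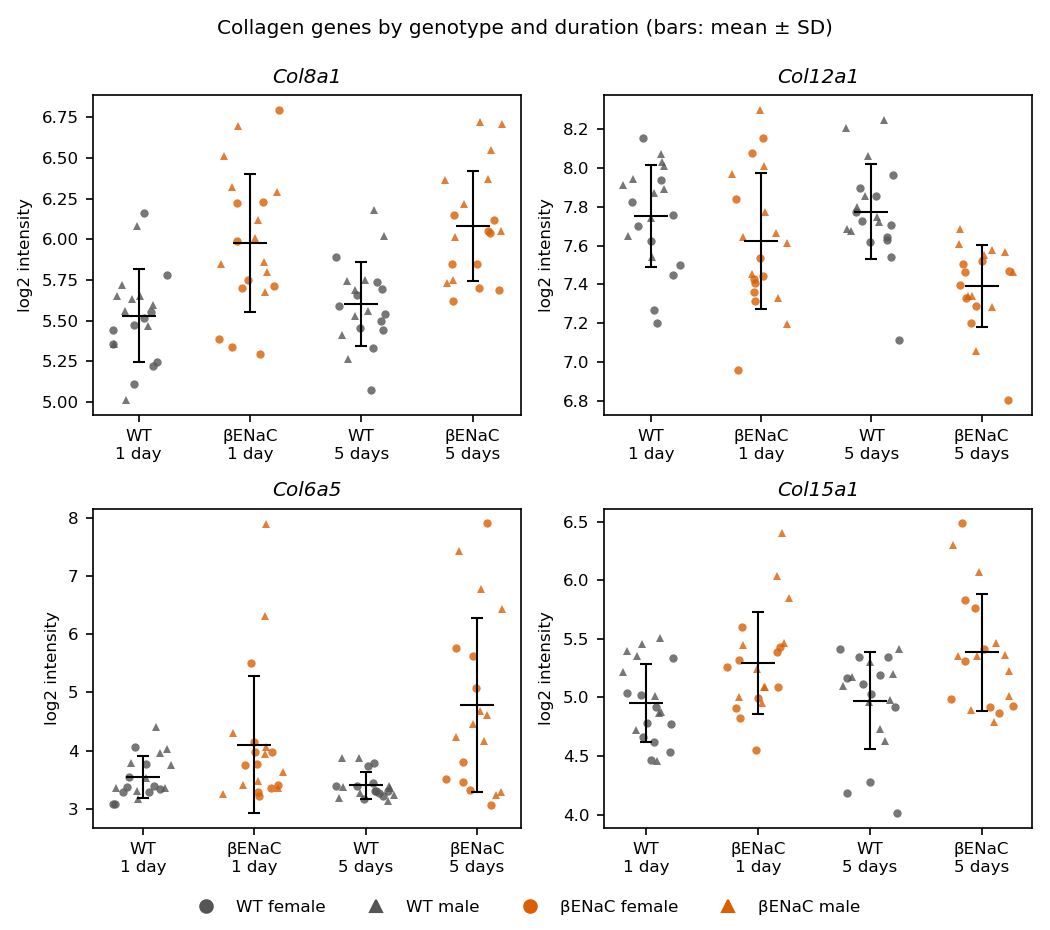
Log2 intensity in each mouse (points; circles for females, triangles for males) for the 4 collagen genes past the methods' rule for genotype, by genotype and duration; bars give mean ± SD of the 19 or 20 mice. Col8a1 sits higher and, at 5 days, Col12a1 lower in βENaC mice, and Col6a5 spreads from 3.07 to 7.91 in βENaC mice at 5 days while WT mice stay between 3.14 and 3.88.

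Sex was the third factor. At 1 day 17 of the 44 collagen genes were called, more than in any other comparison made, and all 17 were higher in males, against 7.82% of all entries called higher in males. They were 6 fibrillar genes (Col1a1, Col1a2, Col3a1, Col5a1, Col5a2 and Col5a3), 5 type IV genes (Col4a1 to Col4a5), 3 type VI genes (Col6a1, Col6a2 and Col6a3), and Col18a1, Col23a1 and Col28a1. Both exposures and both genotypes enter each sex, so the differences are averages over them.

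Col1a1 had a lowest, median and highest level of 9.12, 9.49 and 9.98 in females and of 9.39, 10.05 and 10.49 in males at 1 day. Col3a1 stood at 8.37, 9.14 and 9.65 in females and at 8.84, 9.62 and 10.11 in males, and Col4a2 at 8.57, 9.02 and 9.38 in females and at 9.01, 9.32 and 9.59 in males. In each gene the median of males was near or above the top of the females' range, with overlap below it. Col3a1 was higher in males by 0.51 (SE 0.10, adjusted p = 0.00034), Col1a1 by 0.50 (SE 0.08, adjusted p = 5.1e-05), Col4a5 by 0.42 (SE 0.07, adjusted p = 5.8e-05) and Col5a1 by 0.41 (SE 0.06, adjusted p = 1.1e-05), and these 4 passed the methods' rule, against 0.651% of entries. The smallest p was that of Col4a2, at 0.33 (SE 0.04, adjusted p = 3.9e-06). The median over the 44 genes was 0.105, against 0.0085 over all entries. Without the 4 mice whose labels disagree, 14 genes were called, and Col5a3, Col18a1 and Col28a1 lost their calls (adjusted p = 0.14, 0.067 and 0.093). Col5a3 and Col28a1 lay below the array median in all 79 mice. When single mice were left out, Col28a1 lost its call without any of 18 mice and Col18a1 without any of 12.

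At 5 days 5 of 44 were called higher in males, all 5 of them type IV genes: Col4a1 (0.29, SE 0.05, adjusted p = 0.0016), Col4a4 (0.23, SE 0.04, adjusted p = 0.0022), Col4a2 (0.27, SE 0.05, adjusted p = 0.0050), Col4a5 (0.29, SE 0.06, adjusted p = 0.0085) and Col4a3 (0.20, SE 0.05, adjusted p = 0.034). The background share was 0.472% of all entries. None passed the methods' rule by limma or by an ordinary linear model, and 17 of the 44 had an unadjusted p below 0.05, all 17 higher in males. Col3a1 differed by 0.54 (SE 0.15, adjusted p = 0.090) and Col1a1 by 0.45 (SE 0.12, adjusted p = 0.078), close to their 1-day differences, and the change of the sex difference between durations called 0 of 44 genes by limma (4 at an unadjusted p below 0.05, all 4 lower at 5 days), against 0.654% of all entries. Without smoke-exposed βENaC female 3 of the 5-day set, 9 genes were called and 2 passed the methods' rule, and without the 9 mice whose labels disagree 3 were called.

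Within groups, 6 of 7 pairs of collagen chains varied together from mouse to mouse. Deviations of each mouse from the mean of its group were correlated over the 79 mice. In 6 of the pairs the chains share a molecule or network; Col1a1 and Col3a1 belong to separate molecules of the same fibrils. Col1a1 and Col1a2 had Pearson's r = 0.95 and Spearman's rho = 0.95, and Col1a1 and Col3a1 had r = 0.95 and rho = 0.93. For Col4a1 and Col4a2, whose start sites lie 21 bases apart on opposite strands of chromosome 8 in GRCm38.p6, r was 0.89 and rho 0.86; Col6a1 and Col6a2 gave 0.85 and 0.86, Col4a3 and Col4a4 0.73 and 0.72, and Col4a5 and Col4a6, 1343 bases apart on the X chromosome, 0.52 and 0.44. Each of these 6 had an adjusted p of 1.2e-05 for r over the 7 pairs, the smallest that the 100000 resamples of the two-sided permutation test could give, and of 1.4e-05 to 7e-05 for rho. Without the 2 mice farthest from the middle of the first chain, r ranged from 0.44 to 0.96 over the 6 pairs, and it was 0.62 at 1 day and 0.41 at 5 days for Col4a5 and Col4a6, the lowest of them. Col8a1 and Col8a2, the exception, had r = 0.00 and rho = 0.04 (adjusted permutation p = 0.97 and 0.71), with r = -0.15 at 1 day and 0.23 at 5 days.

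By the same measure, the collagen genes most like Col1a1 over the 79 mice were Col1a2 and Col3a1 (r = 0.95 each), Col6a3 (0.87), Col5a2 and Col6a2 (0.86 each), Col15a1 (0.81), and Col6a1 and Col14a1 (0.77 each). Least like it among the 23 genes above the array median was Col23a1 (r = -0.11). Col13a1, lower with smoke at 5 days like Col1a1, had r = 0.00 with it within groups. Genes of separate molecules were thus as alike as some partners, with 0.87 for Col1a1 and Col6a3 against 0.73 for Col4a3 and Col4a4. These correlations share the array of each mouse and are given as a description.

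**Figure D5:**
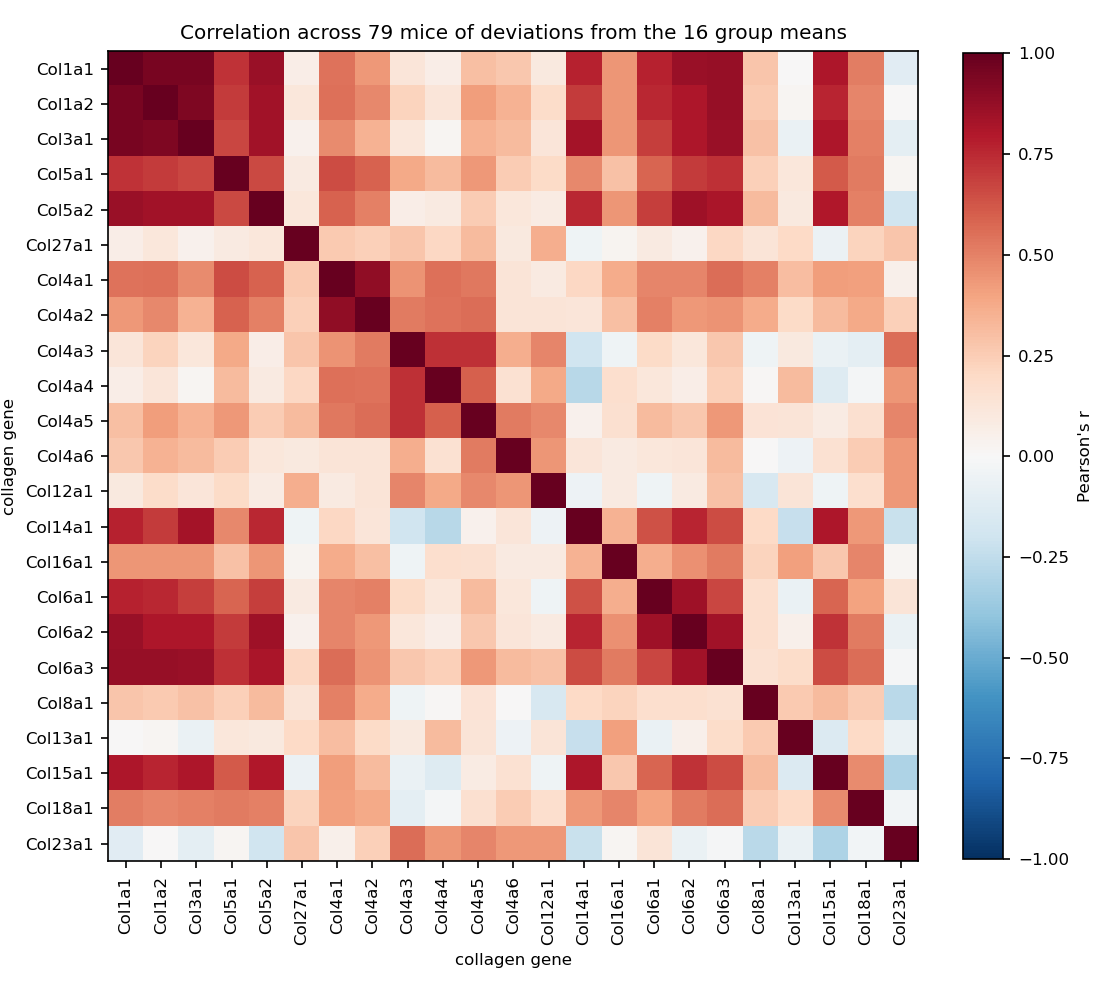
Pearson's r over 79 mice between the deviations from the 16 group means of the 23 collagen genes with a mean above the array median; red is positive and blue negative. Col1a1, Col1a2, Col3a1, Col5a2, Col6a2, Col6a3 and Col15a1 form the darkest block with Col14a1, Col4a5 is darker with Col4a3 (0.73) than with Col4a6 (0.52), Col4a6 is pale with Col4a1 and Col4a2 (0.13 each), and Col23a1 and Col13a1 are pale in the row of Col1a1 at -0.11 and 0.00.

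The genes that make, crosslink and remove collagen were read beside the collagens in 6 lists. Over all 31350 entries, smoke had 1576 called higher and 1388 lower at 1 day, and 993 higher (3.17%) and 1055 lower at 5 days. At 1 day of smoke the largest change was in Lox, the lysyl oxidase that crosslinks fibrils, which rose by 0.87 (SE 0.07, adjusted p = 7.6e-12), the only 1 of 6 crosslinking genes called. Adamts14 (0.37, adjusted p = 9.9e-05) and Adamts3 (0.19, adjusted p = 0.031), which cut N-propeptides, rose among 7 processing genes, P4ha2 (0.27, adjusted p = 0.00024) and Plod1 (0.16, adjusted p = 0.015) among 15 hydroxylation and glycosylation genes, Tram2 (0.12, adjusted p = 0.016) among 6 chaperone and export genes, and Timp3 (0.14, adjusted p = 0.027), a metalloproteinase inhibitor, among 10 degradation genes. Lair1, an inhibitory collagen receptor of leukocytes, fell by 0.51 (adjusted p = 0.00085), 1 of 9 receptor genes.

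At 5 days Lox was still higher, by 0.59 (SE 0.08, adjusted p = 4.0e-06), while 3 other crosslinking genes fell: Loxl1 by 0.57 (SE 0.06, adjusted p = 2.3e-08), Pxdn, which crosslinks type IV collagen, by 0.26 (adjusted p = 0.00055) and Loxl2 by 0.21 (adjusted p = 0.0072). Serpinh1, the collagen chaperone HSP47, fell by 0.41 (SE 0.08, adjusted p = 0.00031) and Fkbp10, a second chaperone, by 0.21 (adjusted p = 0.011), 2 of 6. Mrc2, the endocytic collagen receptor of fibroblasts, fell by 0.59 (SE 0.08, adjusted p = 5.0e-07) and the integrin gene Itga2 by 0.26 (adjusted p = 0.018), 2 of 9. Pcolce, an enhancer of C-propeptide removal, fell by 0.28 (adjusted p = 0.0070) and Adamts14 rose by 0.31 (adjusted p = 0.0029); Mmp2, a gelatinase, fell by 0.37 (adjusted p = 0.017) and Timp3 rose by 0.24 (adjusted p = 0.00033). None of the 15 hydroxylation and glycosylation genes was called by limma (5 at an unadjusted p below 0.05), and 12 of them were negative (median -0.0716).

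For genotype, 1123 of all 31350 entries were called higher and 717 lower at 1 day, and 1521 and 1670 at 5 days. In βENaC mice, in the degradation list, Ctsk, the collagen-cleaving cathepsin K, was higher by 1.95 at 1 day (adjusted p = 5.2e-08) and by 1.97 at 5 days (adjusted p = 3.3e-09), and Timp1 by 1.18 (adjusted p = 0.0032) and 1.24 (adjusted p = 0.0026). Of the 15 hydroxylation and glycosylation genes, 5 were higher and 2 lower at 1 day, and 2 were higher and 2 lower at 5 days. P4ha3, a prolyl hydroxylase chain, was higher by 0.73 (adjusted p = 0.00030) and 0.60 (adjusted p = 0.0093), but its mean lay below the array median. Plod2, a lysyl hydroxylase, differed by -0.21 (adjusted p = 0.040) and -0.41 (adjusted p = 6.4e-06). In males at 1 day 5 of 6 crosslinking genes were higher, led by Lox at 0.56 (adjusted p = 1.2e-06), and 7 of 15 hydroxylation and glycosylation genes, led by P3h2 at 0.46 (adjusted p = 3.2e-07) and P3h1 at 0.32 (adjusted p = 4.9e-06). Over all entries 7.82% were called higher in males at 1 day.

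Markers of cell types were measured beside these results. At 5 days of smoke 3 of 10 fibroblast markers were called lower, Tcf21 (-0.38, adjusted p = 1.8e-05), Dpt (-0.19, adjusted p = 0.0058) and Npnt (-0.15, adjusted p = 0.041), and none higher, against 3.37% of all entries lower; 6 of the 10 were negative and 4 positive, with a median of -0.0814. The mean of the 10 ran from 9.49 to 9.81 in sham-exposed and from 9.12 to 9.73 in smoke-exposed mice, and none of the 10 lay below the array median. All 4 red cell genes were higher, led by Slc4a1 (1.89, adjusted p = 1.3e-08), with list means of 7.45 to 8.85 in sham-exposed and 8.28 to 9.79 in smoke-exposed mice. Tnnt2 of the 6 skeletal and heart muscle genes was higher (0.40, adjusted p = 0.026), with list means of 5.40 to 6.01 (median 5.74) and 5.30 to 9.02 (median 5.93). The 9.02 was in a WT female, and no βENaC mouse at 5 days was above 6.78. At 1 day the highest mean of that list, 9.22, was in a sham-exposed WT male. Endothelial markers were lower for 3 of 6, led by Emcn (-0.29, adjusted p = 0.0035), with list means of 10.31 to 10.67 and 9.98 to 10.57. Of 7 alveolar epithelial markers Lamp3 (-0.15, adjusted p = 0.00068) and Abca3 (-0.15, adjusted p = 0.00023) were lower, while 4 of the 7 were positive (median 0.0083). Ear2 of the 6 alveolar macrophage markers was lower (-0.41, adjusted p = 0.00018), with 3 of the 6 positive and 3 negative (median -0.0066). Of 7 genes of dividing cells limma called 0 (0 at an unadjusted p below 0.05); all 7 were negative (median -0.1557), with list means of 4.67 to 6.19 in sham-exposed and 4.73 to 5.82 in smoke-exposed mice. Within groups, over the 79 mice, the mean of the fibrillar genes had r = 0.71 with the mean of that list and 0.48 with that of the fibroblast list. Of the 7 dividing-cell genes 3 lay below the array median on average. Among the lists of the collagen pathway, r was 0.81 for chaperones and export and 0.73 for hydroxylation and glycosylation. For the other pathway lists it ran from 0.35 to 0.65. At 1 day of smoke 1 of 10 fibroblast markers, Pdgfra, was higher (0.22, adjusted p = 7.2e-06). The part of these cell types in the collagen results was not tested.

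With genotype, 4 of 6 alveolar macrophage markers were higher and 1 was lower at each duration. The higher ones were led at 5 days by Chil3 (0.79, adjusted p = 3.3e-07) and Cd68 (1.00, adjusted p = 3.6e-07). The list means at 5 days were 9.15 to 9.66 in WT and 9.03 to 10.32 in βENaC mice. Genes of dividing cells were higher for 4 of 7 at 1 day, led by Bub1b (0.41, adjusted p = 0.0030), and for 1 of 7 at 5 days, with list means at 1 day of 4.40 to 5.53 in WT and 4.43 to 5.87 in βENaC mice. Smooth muscle markers were lower for 3 of 7 at 5 days, led by Cnn1 (-0.61, adjusted p = 1.3e-07), with list means of 8.58 to 9.26 in WT and 8.35 to 8.91 in βENaC mice. Endothelial markers were lower for 4 of 6 and higher for 1 of 6 at each duration. Among fibroblast markers at 1 day, 1 of 10 was higher and none lower, with 6 of the 10 negative (median -0.0298). At 5 days 1 of these 10 was higher and 3 were lower. Of 9 cartilage genes 8 lay below the array median on average. With sex at 1 day, 4 of 10 fibroblast markers were higher in males, led by Dpt (0.31, adjusted p = 0.0016), with list means of 9.30 to 9.72 in females and 9.31 to 9.75 in males. Alveolar epithelial markers were higher in males for 3 of 7, among them Sftpb (0.13, adjusted p = 0.00068), with list means of 10.72 to 10.92 in females and 10.76 to 10.98 in males. These stand against the 7.82% of all entries called higher in males. The part of these cell types in the genotype and sex differences of the collagen genes was not tested.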

How the data were processed

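The deposited values are log2 intensities of lung RNA, 1 Affymetrix array per mouse. The authors corrected background by RMA, adjusted for probe sequence, quantile normalized and summarised by median polish (Affymetrix Expression Console 1.4 and Partek 6.6, per the labels), and left out 1 array. Array medians ran from 4.44 to 4.55; the number of arrays limits the precision. Entries carry RefSeq accessions, and 21837 of 31350 could be given a symbol.

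For each duration, limma 3.58.1 (R 4.3.3) was fitted to all 31350 entries with genotype, exposure and sex, with Benjamini-Hochberg adjustment over all entries. Calls were made at an adjusted p below 0.05, and by the methods' rule with a change over 1.3-fold as well. Fits were tested on simulated data. Any collagen gene may be named; values by group are given in full for genes past the methods' rule in an exposure, genotype or duration comparison and for 9 main chains (Col1a1, Col1a2, Col3a1, Col4a1, Col4a2, Col5a1, Col6a1, Col6a3 and Col15a1), and list genes are named by an exposure call or as the smallest p of a list. The members and lists were chosen with earlier results of these data known. Alternatives were other scaling, priors, weights, filters, fold limits, an ordinary linear model, a replicate block and omission of mice.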

Additional observations from a re-analysis of the deposited data

Results flagged for a closer look

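Over 176 sets of group and gene or class mean, 16 had 1 mouse standing far from the rest of its group; chance gives about 1 in 20. Numbers are replicate numbers, and values are log2 intensities. Smoke-exposed βENaC female 3 of the 5-day set stood high in Col6a5 (7.91, nearest other mouse 3.51), Col15a1 (6.49) and the mean of the 3 brighter FACIT genes (6.91). Sham-exposed WT female 3 of the 5-day set stood low in Col6a3 (7.91) and high in Col6a5 (3.78). Smoke-exposed WT female 2 of that set stood low in Col6a3 (7.26, nearest other mouse 8.08); without it the 5-day smoke difference of Col6a3 was -0.41 (adjusted p = 0.00060) and that of Col3a1 -0.49 (adjusted p = 0.016), while Col1a1, at -0.33, lost its call (adjusted p = 0.083).

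Smoke-exposed WT male 4 of the 5-day set stood high in Col6a3 (8.58) and Col12a1 (8.21), and sham-exposed βENaC female 1 low in Col12a1 (7.20). At 1 day, sham-exposed βENaC female 4 was low in Col3a1 (8.53), smoke-exposed βENaC male 1 high in Col8a1 (6.70) and sham-exposed WT male 5 low in Col8a1 (5.01). Among class means, the fibrillar mean was low in smoke-exposed WT male 5 at 1 day (7.64). At 5 days the type IV mean was high in sham-exposed βENaC male 2 (8.37), the FACIT mean in smoke-exposed βENaC male 5 (7.09) and the mean of the other class in sham-exposed WT male 5 (7.44).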

How the results depend on the processing

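Of 56 single-gene results, all kept their direction under every alternative that could be run on them, and between 51 and 56 kept their side of the threshold, except that 36 did without the mice whose labels disagree, 2 of 5 with genotype and sex terms added, and 54 of 54 without the 30% lowest entries, which removed the other 2. Without those mice the counts at an adjusted p below 0.05 became 0 for smoke at 5 days (0 by the methods' rule), 3 for genotype at 1 day, 5 for genotype at 5 days and 3 for sex at 5 days; the alternative leaves 36 mice at 1 day and 30 at 5 days, and calls over all entries for smoke at 5 days went from 2048 to 629. With no fold limit the methods' rule gave 3 and 7 genes for smoke at 1 and 5 days, 8 and 8 for genotype and 17 and 5 for sex. With a 1.5-fold limit it gave 0 for smoke at 5 days, 0 for genotype at 1 day, 1 for genotype at 5 days and 0 for sex at 1 day. Array weights gave 2 genes for genotype and 2 for sex at 5 days by that rule, and 1 gene by either rule for exposure by duration. Genotype and sex terms gave 3 genes for exposure by duration, 1 by the methods' rule. Centring arrays on their medians gave 8 genes for sex at 5 days, 1 by the methods' rule, and the ordinary linear model gave 5 for genotype at 1 day. The cause of these changes was not tested where the alternative is not one of fewer mice or another limit.

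Leaving out each mouse in turn gave, at an adjusted p below 0.05 and by the methods' rule, 3 to 4 and 0 to 0 genes for smoke at 1 day, 3 to 11 and 2 to 4 at 5 days, 4 to 12 and 1 to 2 for genotype at 1 day, 7 to 10 and 2 to 4 at 5 days, 15 to 18 and 4 to 5 for sex at 1 day, 4 to 9 and 0 to 2 at 5 days, and 0 to 1 and 0 to 1 for exposure by duration. Mice of different groups with the same number deviated together little on average (mean r = 0.01, from -0.28 to 0.54), as did mice with different numbers (mean r = -0.003, from -0.43 to 0.35). Such an average cannot exclude that some mice with the same number belong together, and the main fits did not use the numbers. With the number as a replicate block, 5 genes were called for smoke at 5 days, 2 by the methods' rule, and Col1a1 (-0.40, adjusted p = 0.061) and Col4a4 (-0.13, adjusted p = 0.062) lost their calls. Taking every row per collagen gene gave the same 44 rows. Signal limits what can be seen for the 17 genes that lay below the array median in every mouse.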
